A study of Mus musculus with 4 samples.

Results

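Acute-phase proteins are secreted proteins whose plasma levels change during inflammation. The 10 genes described here encode serum amyloid A (Saa1, Saa2 and Saa3), lipocalin 2 (Lcn2), haptoglobin (Hp), α1-acid glycoprotein (Orm1 and Orm2), an antichymotrypsin-like serine protease inhibitor (Serpina3n), ceruloplasmin (Cp) and lipopolysaccharide-binding protein (Lbp). They were chosen by name as a functional group, with earlier results of these data known. All 10 were found among the 49585 genes of the count data. In 7 of them the C/EBPβ libraries were both above the empty vector libraries, and in 3 both were below. Orm1, Orm2, Hp, Saa3 and Cp passed the test as higher with C/EBPβ, and none passed it as lower. Of all 15078 genes tested, 24.9% passed, and in 66.2% the groups did not overlap. Orm1, Orm2, Hp and Saa3 had enough counts for the test only through the C/EBPβ libraries. The share that passed is therefore not a measure of the 10. The sizes of these differences were far apart, with count ratios of 515 for Orm1 and 1.68 for Cp.

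The liver is the main source of acute-phase proteins in mammals. Interleukin-6 family cytokines act there through STAT3, and interleukin-1 and tumour necrosis factor act through NF-κB and C/EBP factors. C/EBPβ is also known as nuclear factor for interleukin-6 expression and binds regulatory regions of several acute-phase genes in hepatocytes. Many of these genes are also transcribed outside the liver, Saa3 in macrophages and fat cells and Lcn2 in neutrophils and epithelia.

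Messenger RNA was sequenced in 4 strand-specific libraries of C2C12, a mouse myoblast line of C3H origin. In 2 libraries the cells carried a pLXSN retrovirus for C/EBPβ, and in 2 they carried empty pLXSN. Both groups were pooled stable cells selected with G418 at 1200 µg/ml for 7 days and then grown for 48 h in medium with 10% fetal bovine serum, so they were proliferating cells and not myotubes. Nothing in the labels ties the 2 replicates of a group to separate transductions or cultures, so the p-values take in no more than the spread between libraries, which may be technical. Library totals were 38656497 and 92027838 counts with C/EBPβ and 40912955 and 37566321 counts with empty vector. Levels are given as CPM, the count of a gene over the library size after TMM scaling. Cebpb itself had 483 and 473 CPM with C/EBPβ and 85.0 and 76.8 CPM with empty vector, a log2 fold change of 2.56 with a standard error (SE) of 0.09 and an adjusted p of 3.03e-06 in the quasi-likelihood test of edgeR. Reads from the vector and from the chromosomal gene cannot be told apart.

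The stretches before the transcription starts are shown first because C/EBP factors bind a short palindrome-like site, and the acute-phase genes were searched for it. RefSeq promoters of mouse build GRCm38.p6, covering 250 bases before to 50 bases after a start, were at hand for 7 of the 10 genes, while Orm1, Hp and Lbp had no entry. The letters TTGCNNAA were searched on both strands. They were present in a promoter of 6 of the 7 genes and absent from that of Serpina3n. Of all 32851 promoters of that table, 10.8% held them. The 6 sequences below are the 250 bases before the start of the genes that are set against each other in the results, 5′ to 3′ on the gene's own strand, and capitals mark the match.
Orm2: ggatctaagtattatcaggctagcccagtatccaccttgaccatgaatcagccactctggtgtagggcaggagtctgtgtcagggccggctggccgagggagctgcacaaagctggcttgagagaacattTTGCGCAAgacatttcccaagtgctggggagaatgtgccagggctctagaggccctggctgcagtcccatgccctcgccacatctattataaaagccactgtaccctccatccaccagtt
Orm3: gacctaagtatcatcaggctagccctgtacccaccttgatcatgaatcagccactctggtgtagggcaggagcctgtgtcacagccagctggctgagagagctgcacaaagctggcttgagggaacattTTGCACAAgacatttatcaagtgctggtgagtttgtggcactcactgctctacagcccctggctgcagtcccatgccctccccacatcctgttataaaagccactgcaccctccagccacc
Saa3: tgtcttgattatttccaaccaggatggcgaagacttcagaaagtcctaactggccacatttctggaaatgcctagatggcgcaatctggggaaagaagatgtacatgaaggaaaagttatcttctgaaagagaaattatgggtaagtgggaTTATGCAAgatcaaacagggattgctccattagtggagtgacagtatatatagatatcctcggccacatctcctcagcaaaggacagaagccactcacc
Saa1: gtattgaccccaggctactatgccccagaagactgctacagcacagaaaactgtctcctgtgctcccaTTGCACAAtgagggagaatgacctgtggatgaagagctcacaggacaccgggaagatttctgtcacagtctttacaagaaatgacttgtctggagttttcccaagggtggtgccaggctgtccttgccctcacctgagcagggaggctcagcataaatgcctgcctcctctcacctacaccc
Lcn2: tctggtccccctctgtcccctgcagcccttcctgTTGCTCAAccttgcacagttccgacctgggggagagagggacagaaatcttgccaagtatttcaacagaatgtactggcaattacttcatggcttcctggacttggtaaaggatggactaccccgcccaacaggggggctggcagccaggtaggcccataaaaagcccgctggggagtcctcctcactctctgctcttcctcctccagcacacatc
Cp: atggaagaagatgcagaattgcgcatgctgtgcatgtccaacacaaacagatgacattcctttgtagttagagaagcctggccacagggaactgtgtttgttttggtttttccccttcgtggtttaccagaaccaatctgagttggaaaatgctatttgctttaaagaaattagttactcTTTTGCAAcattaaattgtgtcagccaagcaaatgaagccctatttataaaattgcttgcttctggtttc

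The Orm2 stretch is chr4:63362199-63362448 (plus strand), with the match TTGCGCAA beginning 120 bases before the start. Orm3, another copy of the α1-acid glycoprotein gene, has its stretch at chr4:63355908-63356157 (plus strand) and TTGCACAA beginning 121 bases before the start. The Saa3 stretch is chr7:46715677-46715926 (minus strand), and TTATGCAA, which reads as the searched letters on the opposite strand, begins 99 bases before the start. The Saa1 stretch is chr7:46742981-46743230 (minus strand), with TTGCACAA beginning 182 bases before the start, and Saa2 holds the same letters beginning 183 bases before its start. The Lcn2 stretch is chr2:32387740-32387989 (minus strand), with TTGCTCAA beginning 216 bases before the start. Cp has 2 promoters in the table. The one shown is chr3:19956999-19957248 (plus strand), where TTTTGCAA begins 70 bases before the start, and the other had no match. The letters TTCNNNGAA, which STAT factors bind, and an NF-κB motif were found in none of these promoters, against 8.30% and 8.46% of all promoters. A match is a run of letters and no measurement of binding. The genes with a match include Orm2 and Saa3, which were higher with C/EBPβ, and also Saa1 and Saa2, which had few counts in every library.

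Orm1 and Orm2 showed the largest ratios of the 10 genes, together with Hp. Orm1 encodes the main α1-acid glycoprotein, a plasma protein that binds basic drugs and lipophilic molecules, and lies at chr4:63344560-63348163 on the plus strand. It had 1018 and 1556 counts with C/EBPβ and 2 and 1 counts with empty vector, which is 26.7 and 16.9 CPM with C/EBPβ against 0.0486 and 0.0264 CPM with empty vector. Both C/EBPβ libraries stood far above both empty vector libraries. In bulk libraries such as these, a change in the number of cells that make an RNA and a change in its amount per cell cannot be told apart. The mean was 21.8 ± 6.89 CPM with C/EBPβ and 0.0375 ± 0.0157 CPM with empty vector (SD, n = 2 each). The ratio of the groups' counts per library total was 515, with a 95% counting interval of 176 to 2500, and the adjusted p was 7.32e-06 in edgeR. With 3 counts in the empty vector group, the size of the ratio rests on those few counts. Orm1 had enough counts for the test through the C/EBPβ libraries alone, as had Orm2 and Hp below, so their adjusted p are a description. Intervals of this kind, here and below, cover counting error only.

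Orm2 lies beside it at chr4:63362449-63365878 on the plus strand. Its counts were 132 and 165 with C/EBPβ and 2 and 0 with empty vector, or 3.46 and 1.80 CPM with C/EBPβ against 0.0486 and 0 CPM with empty vector. The groups did not overlap, and the ratio was 89.2 with a counting interval of 24.5 to 740 and an adjusted p of 3.77e-04. Orm3, named from a list of other acute-phase genes, stands between the 2 and had 4.90 and 3.94 CPM with C/EBPβ and 0.267 and 0.211 CPM with empty vector. Its log2 fold change was 4.18 with an SE of 0.28 and an adjusted p of 3.74e-05. In empty vector replicate 2 it was under the limit of about 0.25 CPM for testing. Orm3 was thus tested through its C/EBPβ libraries, and its adjusted p is a description. In all 3 copies both C/EBPβ libraries lay above both empty vector libraries. Orm1 made up most of the family's counts in both C/EBPβ libraries, 76.1% and 74.7%. Orm2 made up 9.87% and 7.92% and Orm3 14.0% and 17.4%. Summed over the 3 copies, the family had 35.0 and 22.7 CPM with C/EBPβ and 0.365 and 0.238 CPM with empty vector. In reference transcripts, 20.4% of the 50-base words of Orm1, 22.7% of those of Orm2 and 3.59% of those of Orm3 occur in another gene, and reads that fit several genes were not counted. The split between Orm1 and Orm2 is therefore less certain than the sum.

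Hp encodes haptoglobin, which binds free haemoglobin in plasma and hands it to the scavenger receptor CD163 on macrophages. The gene lies at chr8:109575128-109579172 on the minus strand. It had 135 and 162 counts with C/EBPβ and 0 and 1 counts with empty vector, or 3.54 and 1.76 CPM with C/EBPβ against 0 and 0.0264 CPM with empty vector. The ratio was 178 with a counting interval of 31.8 to 7068, and the adjusted p was 3.29e-04. None of the 50-base words of Hp occurs in another gene. The C/EBPβ libraries were again both above the empty vector libraries.

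**Figure D1:**
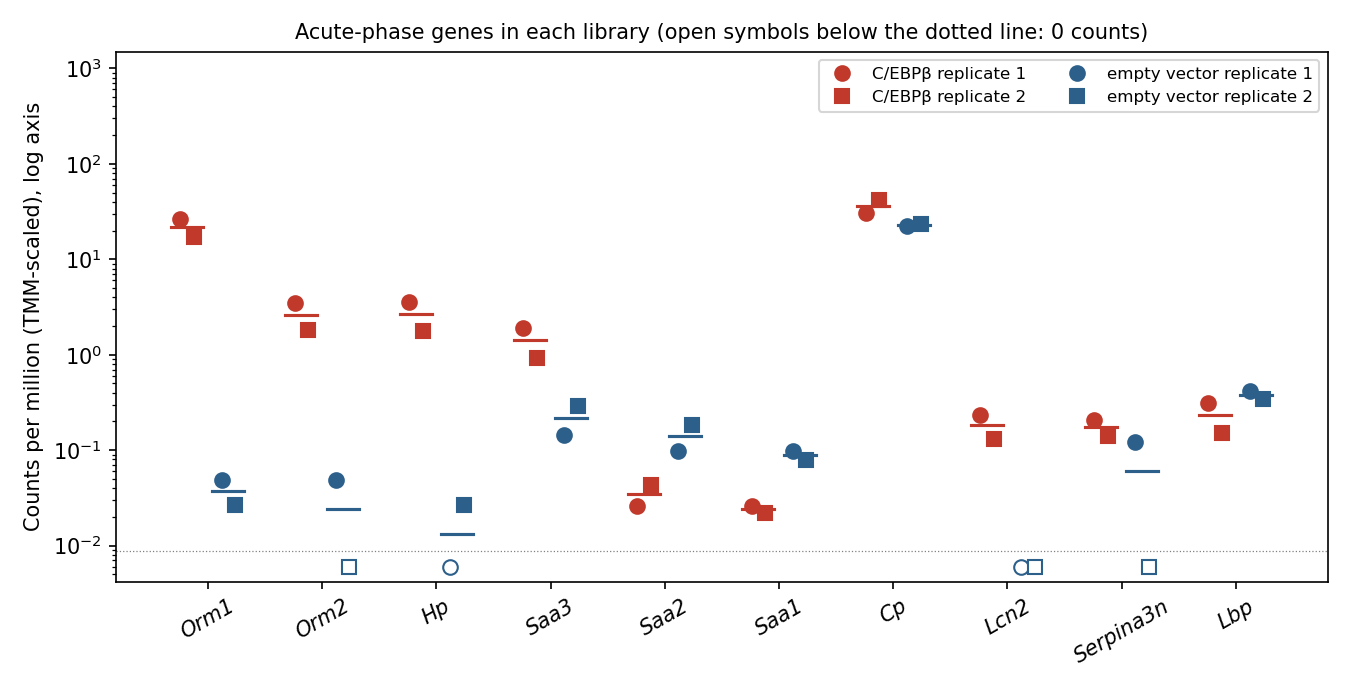
Level of each of the 10 genes in each of the 4 libraries, in TMM-scaled CPM on a log axis, with C/EBPβ in red to the left of empty vector in blue, replicate 1 as circles, replicate 2 as squares and a bar at each group mean; open symbols below the dotted line are libraries with 0 counts. Orm1 reached 26.7 and 16.9 CPM with C/EBPβ and stayed under 0.05 CPM with empty vector, Cp was above 20 CPM in every library, and Saa1, Saa2 and Lbp lay lower with C/EBPβ.

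Of the 3 serum amyloid A genes, Saa3 was higher with C/EBPβ, and Saa1 and Saa2 had too few counts to be tested. Only 1 empty vector library met the limit of about 0.25 CPM for testing in Saa3. Saa3 was thus tested through its C/EBPβ libraries, and its adjusted p is a description. Serum amyloid A proteins are small apolipoproteins that bind to high-density lipoprotein, and in the mouse Saa1 and Saa2 are made mainly in the liver while Saa3 is made in many other tissues. Saa3, at chr7:46711998-46715700 on the minus strand, had 73 and 85 counts with C/EBPβ and 6 and 11 counts with empty vector, or 1.91 and 0.925 CPM with C/EBPβ against 0.146 and 0.291 CPM with empty vector. Its means were 1.42 ± 0.699 CPM with C/EBPβ and 0.218 ± 0.102 CPM with empty vector (SD, n = 2 each), its log2 fold change was 2.63 with an SE of 0.50, and its adjusted p was 0.00605. Without empty vector replicate 1 the log2 fold change was 2.20 and the adjusted p 0.0614. With each of the other libraries left out in turn, the log2 fold change lay between 2.09 and 3.19, and the call held.

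Saa1, at chr7:46740497-46742980 on the minus strand, had 1 and 2 counts with C/EBPβ and 4 and 3 counts with empty vector. Saa2, at chr7:46751790-46754313 on the plus strand, had 1 and 4 counts with C/EBPβ and 4 and 7 counts with empty vector. Saa1 thus had 0.0262 and 0.0218 CPM with C/EBPβ and 0.0972 and 0.0793 CPM with empty vector, and Saa2 had 0.0262 and 0.0435 CPM with C/EBPβ and 0.0972 and 0.185 CPM with empty vector. The C/EBPβ libraries were the lower ones for both genes. The Saa1 ratio of 0.257 had a counting interval of 0.0429 to 1.13, which includes no difference, and the Saa2 ratio of 0.273 had an interval of 0.0744 to 0.852. Of the 50-base words of Saa1, 31.1% also occur in Saa2, and 29.97% of those of Saa2 occur in Saa1, so that reads of either can have been left uncounted. Their summed counts were 2 and 6 with C/EBPβ and 8 and 10 with empty vector. Saa4, the fourth gene of the cluster, had 0 and 1 counts with C/EBPβ and 0 in both empty vector libraries.

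Cp was the one gene of the 10 that had a substantial level in both groups. It encodes ceruloplasmin, a copper-carrying ferroxidase that oxidises iron leaving cells, and lies at chr3:19957054-20009145 on the plus strand, overlapped by Hps3 on the other strand. It had 1167 and 3846 counts with C/EBPβ and 911 and 883 counts with empty vector, or 30.6 and 41.9 CPM with C/EBPβ against 22.1 and 23.3 CPM with empty vector. The means were 36.2 ± 7.97 CPM with C/EBPβ and 22.7 ± 0.842 CPM with empty vector (SD, n = 2 each). The log2 fold change was 0.68 with an SE of 0.15 and an adjusted p of 0.0108, a 1.60-fold difference. Without empty vector replicate 1 it was 0.64 with an adjusted p of 0.0651. With C/EBPβ replicate 1 alone it was 0.43, and with C/EBPβ replicate 2 alone 0.88, so that the size of the Cp difference depended on which C/EBPβ library was used.

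Lcn2 encodes lipocalin 2, which withholds iron from bacteria by binding their siderophores. The gene lies at chr2:32384633-32388252 on the minus strand. It had 9 and 12 counts with C/EBPβ and 0 in both empty vector libraries, or 0.236 and 0.131 CPM. A count of 0 over the empty vector group allows up to 0.0382 CPM by library totals, taking 3 counts over the group, and against that limit Lcn2 was at least 4.20-fold higher with C/EBPβ. With only 1 of the empty vector libraries the bound was 2.01 or 2.19. It did not have enough counts for the main test. When all 26623 genes with any count were tested, of which 16.9% passed, its adjusted p was 0.00200.

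Serpina3n and Lbp gave no difference that passed a test. Serpina3n is the mouse antichymotrypsin-like inhibitor best known from reactive astrocytes and liver, at chr12:104406729-104414329 on the plus strand. It had 8 and 13 counts with C/EBPβ and 5 and 0 counts with empty vector, or 0.210 and 0.141 CPM with C/EBPβ against 0.122 and 0 CPM with empty vector. The groups did not overlap, but the ratio of 2.52 had a counting interval of 0.926 to 8.56, and with no filter on counts the adjusted p was 0.303. The ratio was at least 2.01 without empty vector replicate 1 and 1.31 when replicate 2 of that group was left out. Lbp, whose product carries bacterial lipopolysaccharide to CD14, lies at chr2:158306493-158332852 on the plus strand. It had 12 and 14 counts with C/EBPβ and 17 and 13 counts with empty vector, or 0.315 and 0.152 CPM with C/EBPβ against 0.413 and 0.344 CPM with empty vector. Its count ratio of 0.520 had a counting interval of 0.296 to 0.910, and its log2 fold change was -0.86 with an SE of 0.45 and an adjusted p of 0.208. C/EBPβ replicate 1 lay close to the empty vector libraries and replicate 2 well below them. The log2 fold change was -0.27 without C/EBPβ replicate 2.

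**Figure D2:**
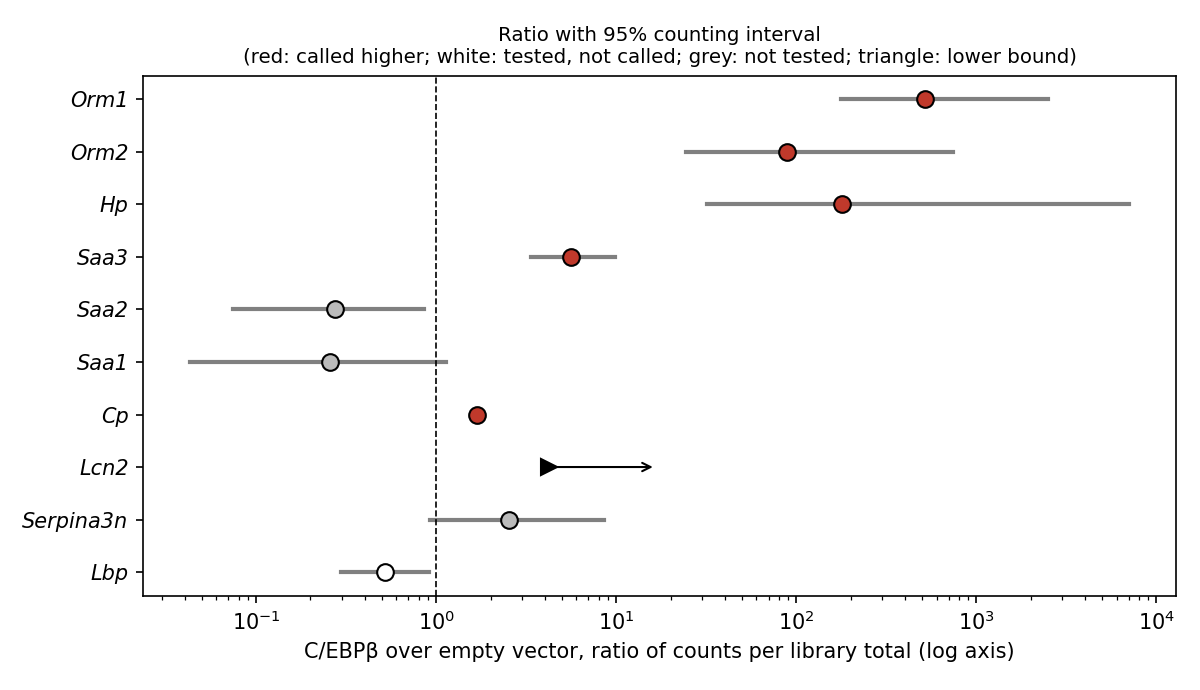
Ratio of C/EBPβ to empty vector counts per library total for each of the 10 genes, summed over the 2 libraries of a group, on a log axis with 95% counting intervals; red points passed the test as higher, the white point was tested and did not pass, grey points were not tested, and the triangle with an arrow marks Lcn2 at its lower bound of 4.20. Orm1, Hp and Orm2 had ratios of 515, 178 and 89.2, the interval of Saa3 was 3.38 to 9.82, and the intervals of Saa1 and Serpina3n include 1.

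Over the 10 genes, 5 passed the test as higher with C/EBPβ, 0 passed as lower, 1 (Lbp) was tested and did not pass, and 4 (Saa1, Saa2, Lcn2 and Serpina3n) had too few counts to be tested. Of all genes tested, 14.1% passed as higher and 10.8% as lower. Hp, Orm1 and Orm2 had enough counts for the test through the C/EBPβ libraries alone and therefore had to differ if tested. Saa3 also needed its C/EBPβ libraries to be tested. The share of tested genes that passed is therefore not a measure of the 10. Genes that passed with a fitted log2 fold change over 3 made up 1.40% of all tested genes, and Orm1, Orm2 and Hp are among them. That the groups did not overlap in any of the 10 genes is read against 66.2% of all tested genes, which showed the same, 33.3% with C/EBPβ above.

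Per counted gene length the order of the 10 genes differed between the groups. That length joins all annotated exons of a gene and can exceed that of its RNA, so the order between genes is approximate. It was 775 bases for Orm1 and Orm2, 2478 for Saa1 and 9566 for Cp. In FPKM, which is CPM over the counted length in kilobases, Orm1 was the most abundant with C/EBPβ at 34.4 and 21.9, against 0.0627 and 0.0341 with empty vector. Cp came second with C/EBPβ at 3.20 and 4.38 FPKM, against 2.32 and 2.44 FPKM with empty vector. Orm2 came next at 4.46 and 2.32 FPKM with C/EBPβ, against 0.0627 and 0 FPKM with empty vector. The ranges of Cp and Orm2 overlapped, so that these neighbours in the order do not differ beyond their spread. Hp followed at 2.20 and 1.10 FPKM with C/EBPβ and 0 and 0.0165 FPKM with empty vector, and its higher value lay just under the lower value of Orm2. Saa3 was at 0.734 and 0.355 FPKM with C/EBPβ and 0.0560 and 0.112 FPKM with empty vector. With C/EBPβ, Serpina3n, Lcn2, Lbp, Saa2 and Saa1 had means from 0.0851 down to 0.00968 FPKM. With empty vector, Cp led at 2.38 ± 0.0880 FPKM (SD, n = 2), and every other gene had a mean of at most 0.0838 FPKM. Set among all tested genes by mean FPKM, 85.1% lay below Orm1 with C/EBPβ and 1.99% with empty vector. For Hp these shares were 30.1% with C/EBPβ and 0.338% with empty vector, and for Cp 42.0% with C/EBPβ and 35.8% with empty vector. Orm1 was thus in the upper part of the tested genes with C/EBPβ, and the others stayed below the middle.

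The 2 C/EBPβ libraries differed from each other by more than counting error in the 5 genes of the 10 that passed as higher, and the intervals of the other 5 included no difference. Replicate 2 over replicate 1 was 0.483 for Saa3 with a counting interval of 0.349 to 0.670, 0.498 for Hp with an interval of 0.394 to 0.631, and 0.519 for Orm2 with an interval of 0.410 to 0.658. Orm1 had 0.635 with an interval of 0.586 to 0.687. Cp went the other way at 1.37 with an interval of 1.28 to 1.46. Cebpb was nearly equal in both libraries, with a ratio of 0.980. Over all tested genes the middle 90% of this ratio ran from 0.710 to 1.40 with a median of 0.9997, so that Saa3, Hp, Orm2 and Orm1 lay below this range and Cp inside it near its top. Lbp lay below it too, at 0.484, but with a counting interval of 0.208 to 1.15. Replicate 1 was also the higher library in most genes called higher with C/EBPβ, 82.3% of 2129, where the median ratio was 0.899. Replicate 2 held 92027838 counts and replicate 1 38656497, and the part of depth in this difference was not tested. The order of the 2 libraries bears on the size of the differences and not on which group was higher, since leaving out either C/EBPβ library kept the ratios at 442 and 689 for Orm1, 138 and 274 for Hp, and 70.4 and 134 for Orm2. Without replicate 1 and without replicate 2 of empty vector, the Orm1 ratio was 740 and 403, the Hp ratio was 85.4 and at least 31.0, and the Orm2 ratio was at least 28.5 and 46.5.

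**Figure D3:**
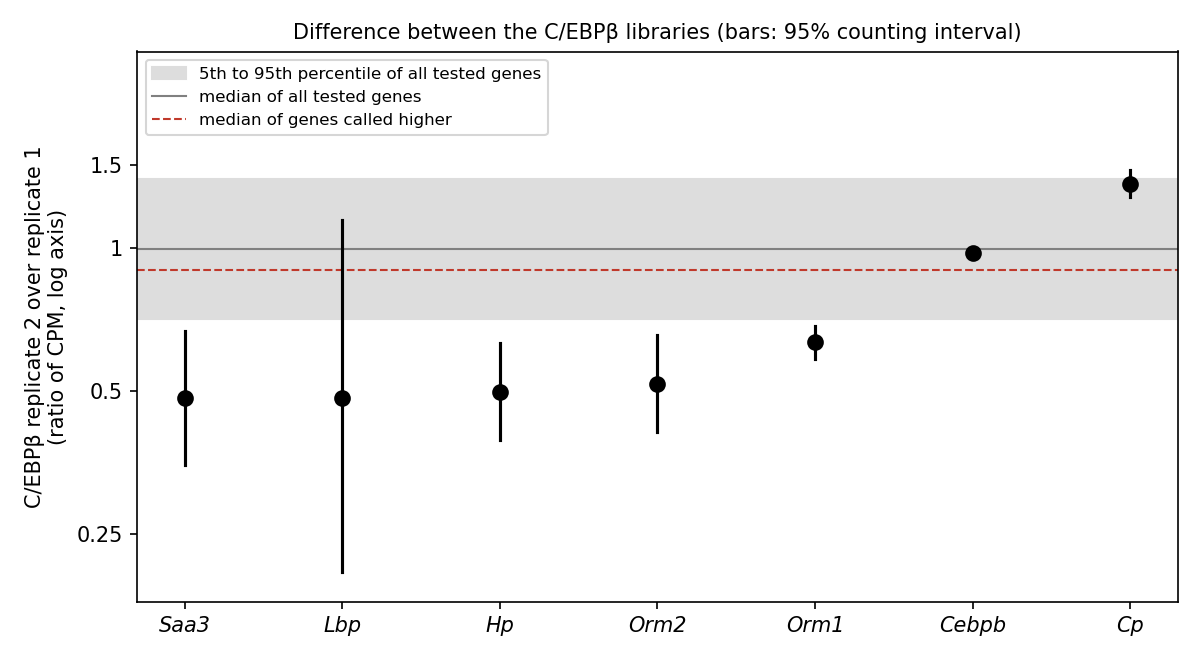
Ratio of C/EBPβ replicate 2 to C/EBPβ replicate 1 in CPM for the tested genes among the 10 and for Cebpb, on a log axis, with 95% counting intervals; the grey band is the 5th to 95th percentile of all tested genes and the lines are the medians of all tested genes and of genes called higher. Saa3, Hp, Orm2 and Orm1 lie below the band at 0.483 to 0.635, as does Lbp at 0.484 with an interval that includes 1, Cebpb lies at 0.980 and Cp at 1.37.

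Other acute-phase genes were followed from a list of 30, of which 10 had no count in any library and 10 could be tested. Of these 10, 6 were higher with C/EBPβ and none lower, where 14.1% of all tested genes were higher and 10.8% lower. The median log2 fold change of the 10 was 0.82, against 0.00 over all tested genes. C3, 1 of the 6, had 0.498 and 0.522 CPM with C/EBPβ and 0.0729 and 0.0264 CPM with empty vector. It had enough counts for the test through the C/EBPβ libraries alone and had to differ if tested. Il1rn, the interleukin-1 receptor antagonist, had 155 and 148 CPM with C/EBPβ and 14.4 and 13.9 CPM with empty vector, with a log2 fold change of 3.42 and an adjusted p of 5.53e-07. Ptx3, a long pentraxin made by stromal and myeloid cells, had 58.1 and 38.0 CPM with C/EBPβ against 0.778 and 0.423 CPM with empty vector, with a log2 fold change of 6.30 and an adjusted p of 7.32e-06. Orm3, described above and tested through its C/EBPβ libraries, was among the 6. Of its genes made mainly by the liver, Crp, Apcs, Fga, Fgb, Fgg and A2m had 0 counts in all 4 libraries. Serpina1d and Serpina1b, copies of the α1-antitrypsin gene, had 12 and 12 and 2 and 3 counts with C/EBPβ and 0 in both empty vector libraries, too few to be tested. Mt1 and Mt2, metallothioneins that bind zinc and copper, had log2 fold changes of -0.01 and -0.12 with adjusted p of 0.965 and 0.659, and their sign turned in some of the alternative fits.

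Genes whose plasma proteins fall in the acute phase were scarcely detected. Of the 10 on that list, 2 could be tested and neither passed. Igf1, insulin-like growth factor 1, had 2.94 and 0.969 CPM with C/EBPβ and 0.802 and 0.211 CPM with empty vector. Its adjusted p was 0.0728 in edgeR and 0.0193 in DESeq2, where 23.5% of all tested genes passed. Serpinc1, antithrombin, had 0.315 and 0.435 CPM with C/EBPβ and 0.194 and 0.529 CPM with empty vector, with an adjusted p of 0.876. The 10 close relatives of Serpina3n in its cluster could not be tested, and 6 had no count. Serpina3g, a serine protease inhibitor of leukocytes, had 11 and 10 counts with C/EBPβ and 0 in both empty vector libraries, and Serpina3c and Serpina3h had 1 count in each C/EBPβ library and 0 with empty vector.

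The acute phase is induced by cytokines of the interleukin-6 and interleukin-1 families. Of 11 such ligand genes, 6 were tested, 1 was higher and 1 lower, with a median log2 fold change of 0.18, near the 24.9% of all tested genes that passed. Clcf1, a cytokine of the interleukin-6 family, was higher with a log2 fold change of 0.66 and an adjusted p of 0.00191. Lif, leukaemia inhibitory factor, had 100 and 231 counts with C/EBPβ and 188 and 164 counts with empty vector, and its log2 fold change was -0.80 with an adjusted p of 0.00983. Il6 itself, chosen here after its values were seen, had 19 and 43 counts with C/EBPβ and 10 and 1 counts with empty vector. Its log2 fold change was 1.77 and its adjusted p 0.0629 in edgeR. The adjusted p was 0.0427 with limma-voom, 0.00180 with no filter on counts and 0.00595 with a replicate block. Under DESeq2, RLE size factors and library totals Il6 did not pass. Il6 had enough counts for the main test through the C/EBPβ libraries alone, so its adjusted p are a description. The log2 fold change of Il6 rose to 4.07 when empty vector replicate 1 was left out. It was 1.74 and 1.82 when C/EBPβ replicate 1 and C/EBPβ replicate 2 were dropped in turn. Of 22 receptors and transducers, all were tested, 14 were higher and none lower, where 14.1% of all tested genes were higher and 10.8% lower. Their median log2 fold change was 0.46. Osmr, the oncostatin M receptor, had 104 and 90.7 CPM with C/EBPβ and 22.4 and 18.5 CPM with empty vector, with a log2 fold change of 2.25 and an adjusted p of 1.20e-05. The interleukin-1 receptor Il1r1 and its partner Il1rap had log2 fold changes of 1.14 and 1.13 with adjusted p of 1.21e-04 and 1.66e-04. The smallest difference that passed was that of Stat3 at 0.33, which had an adjusted p of 0.198 without C/EBPβ replicate 1 and 0.0647 without empty vector replicate 1.

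Of 7 C/EBP genes, 6 were tested and 2 passed, Cebpb and Cebpa, where 24.9% of all tested genes passed. Cebpa, a C/EBP factor of liver and fat, had a log2 fold change of 0.89 with an adjusted p of 0.0119, which was 0.0803 without empty vector replicate 2. Receptors and partners of the acute-phase proteins were represented by 15 genes, of which 10 were tested, 4 were higher and 1 was lower, against 24.9% called of all tested genes, with a median log2 fold change of 0.26. Tlr2, a receptor for bacterial lipoproteins, and Cd14, the receptor that takes lipopolysaccharide from Lbp, were higher with log2 fold changes of 1.31 and 0.72 and adjusted p of 9.98e-04 and 0.00323. Cd36, a scavenger receptor for lipids, was lower with a log2 fold change of -2.34 and an adjusted p of 0.00136. Cd163, the haptoglobin receptor, had 7 and 24 counts with C/EBPβ and 2 and 3 counts with empty vector and was not tested.

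Cp, Lcn2 and Hp all bear on iron, as a ferroxidase, a binder of iron carriers and a binder of haemoglobin. All 14 genes of that list were tested, 3 were higher, 3 lower, and the median log2 fold change was -0.13, where 14.1% of all tested genes were higher and 10.8% lower. Heph, a membrane ferroxidase related to ceruloplasmin, had 0.708 and 1.21 CPM with C/EBPβ and 0 counts in both empty vector libraries. It was at least 27.6-fold higher and, with only 1 of the empty vector libraries, at least 13.2-fold or 14.4-fold higher. Heph had enough counts for the test through the C/EBPβ libraries alone and had to differ if tested. Slc40a1, the iron exporter ferroportin that works with such ferroxidases, was lower, at 1.26 and 2.26 CPM with C/EBPβ and 5.18 and 5.71 CPM with empty vector, with a log2 fold change of -1.57 and an adjusted p of 0.00286. Hmox1, haem oxygenase 1, was higher at a log2 fold change of 0.44 with an adjusted p of 0.00389. Bdh2, a short-chain dehydrogenase, had a log2 fold change of 0.80 with an adjusted p of 0.0154, and 0.0668 without empty vector replicate 2. Steap3, an endosomal ferrireductase, and Ftl1, the ferritin light chain, had log2 fold changes of -0.43 and -0.36 with adjusted p of 0.00440 and 0.0388. The adjusted p of Ftl1 was 0.150 without C/EBPβ replicate 1 and 0.129 without empty vector replicate 1.

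**Figure D4:**
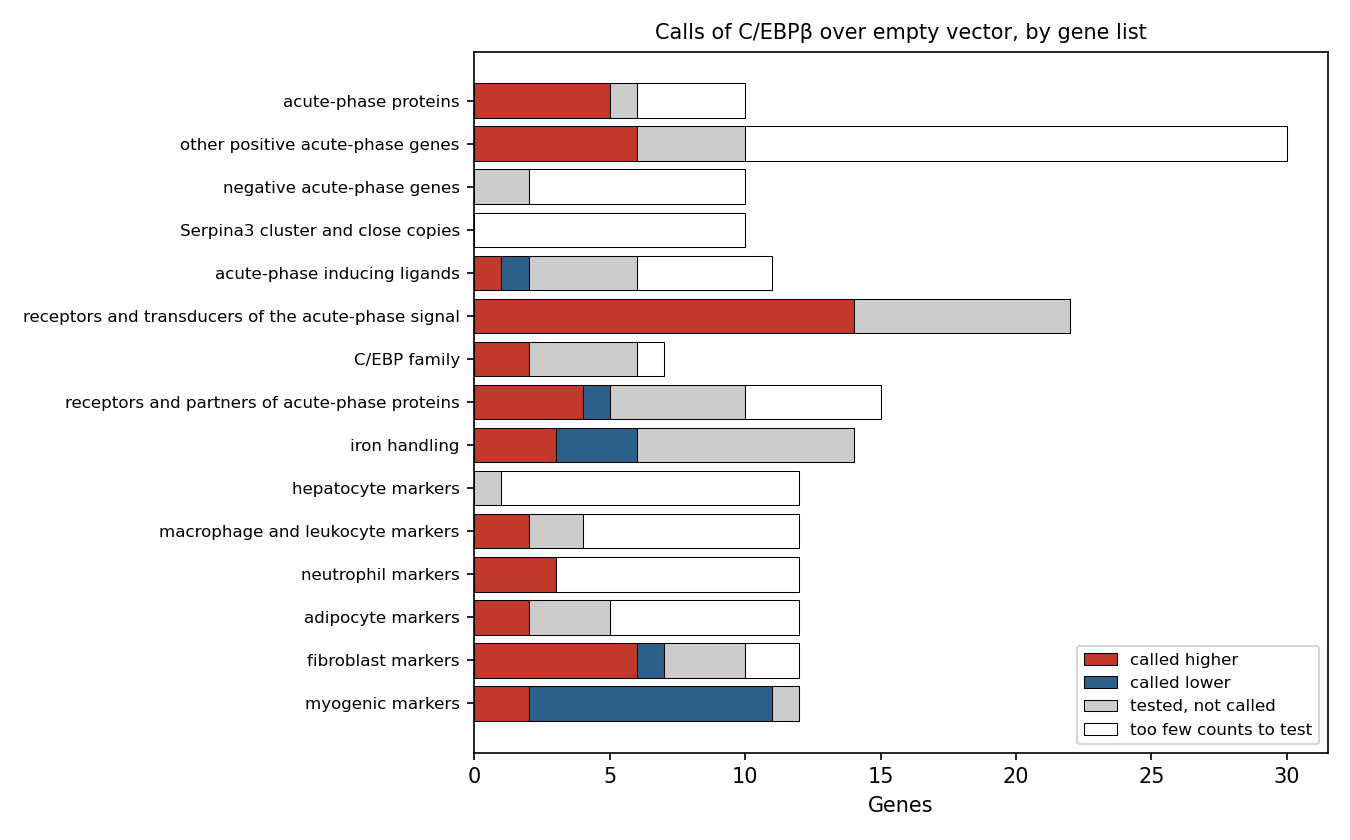
Number of genes in each gene list that were called higher with C/EBPβ (red), called lower (blue), tested and not called (grey) or had too few counts to test (white), with a bar's length giving the list's size. Receptors and transducers of the acute-phase signal had 14 of 22 called higher, iron handling genes were split 3 to 3, and of the 12 hepatocyte markers 1 could be tested.

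Markers of cells known to make acute-phase proteins were looked at beside these results. Of 12 hepatocyte markers, 5 had no count, among them Alb, Ttr and Cps1, and the summed level was 0.472 and 0.871 CPM with C/EBPβ and 0.365 and 0.502 CPM with empty vector. Apob was the only one tested and had an adjusted p of 0.324, and Hnf4a had 1 and 2 counts with C/EBPβ and 1 in each empty vector library. Of 12 macrophage and leukocyte markers, 4 were tested and 2 passed as higher, as did 14.1% of all tested genes. The summed level of the 12 was 15.3 and 13.1 CPM with C/EBPβ against 6.35 and 5.79 CPM with empty vector. Lyz2, lysozyme, had 7.50 and 4.88 CPM with C/EBPβ and 0.146 and 0.0529 CPM with empty vector, and Csf1r, the receptor of macrophage colony-stimulating factor, had a log2 fold change of 1.33 with an adjusted p of 0.0235. For Csf1r the adjusted p was 0.0987 when empty vector replicate 2 was left out, and the log2 fold change was 1.999 when replicate 1 was. Lyz2 had enough counts for the test through the C/EBPβ libraries alone. Tyrobp, Itgam, Adgre1 and Cd52 had 0 counts in all 4 libraries, and every other marker of this list was detected in some library.

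Neutrophil granule genes were looked at in the same way. Of 12 markers, 3 were tested, with a summed level of 11.5 and 8.64 CPM with C/EBPβ and 0.413 and 0.264 CPM with empty vector. The 3 (Camp, S100a8 and Mmp8) had enough counts for the test through the C/EBPβ libraries alone, so they had to differ if tested and their values are a description. Camp, the cathelicidin precursor, had 9.36 and 6.20 CPM with C/EBPβ against 0.243 and 0.0793 CPM with empty vector. S100a8, a calcium-binding protein of myeloid cells, had 1.63 and 1.98 CPM with C/EBPβ and 0 counts with empty vector, at least 48.8-fold higher. Mmp8, the neutrophil collagenase, was at least 9.01-fold higher. With 1 empty vector library left out, these bounds were 23.4 and 25.5 for S100a8 and 4.31 and 4.70 for Mmp8. S100a9, Cxcr2, Ltf and Retnlg had 0 counts in all 4 libraries. The part of these genes' cells in the acute-phase result was not tested.

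The acute-phase genes were also compared with their neighbours on the chromosome. Within 100 kb of a start lay 28 other protein-coding genes, of which 18 were tested, 3 were higher and 2 lower, close to the 24.9% of all tested genes, and their median log2 fold change was -0.07. Orm3 was the one with a large difference. Akna, 40.9 kb from Orm2, had a log2 fold change of 0.61 with an adjusted p of 0.0241, and Snhg11 near Lbp had 1.56 with an adjusted p of 0.0195. Dnm1 and Ptges2 near Lcn2 had -0.39 each, with adjusted p of 0.0148 and 0.0202. All 4 lost the call when at least 1 library was left out, with an adjusted p of up to 0.103 for Akna and 0.101 for Snhg11 (both without empty vector replicate 1), 0.130 for Ptges2 (without C/EBPβ replicate 1) and 0.100 for Dnm1 (without C/EBPβ replicate 2). Around the serum amyloid A cluster, Saal1, Hps5, Gtf2h1, Ldha and Sergef were tested and none passed.

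**Figure D5:**
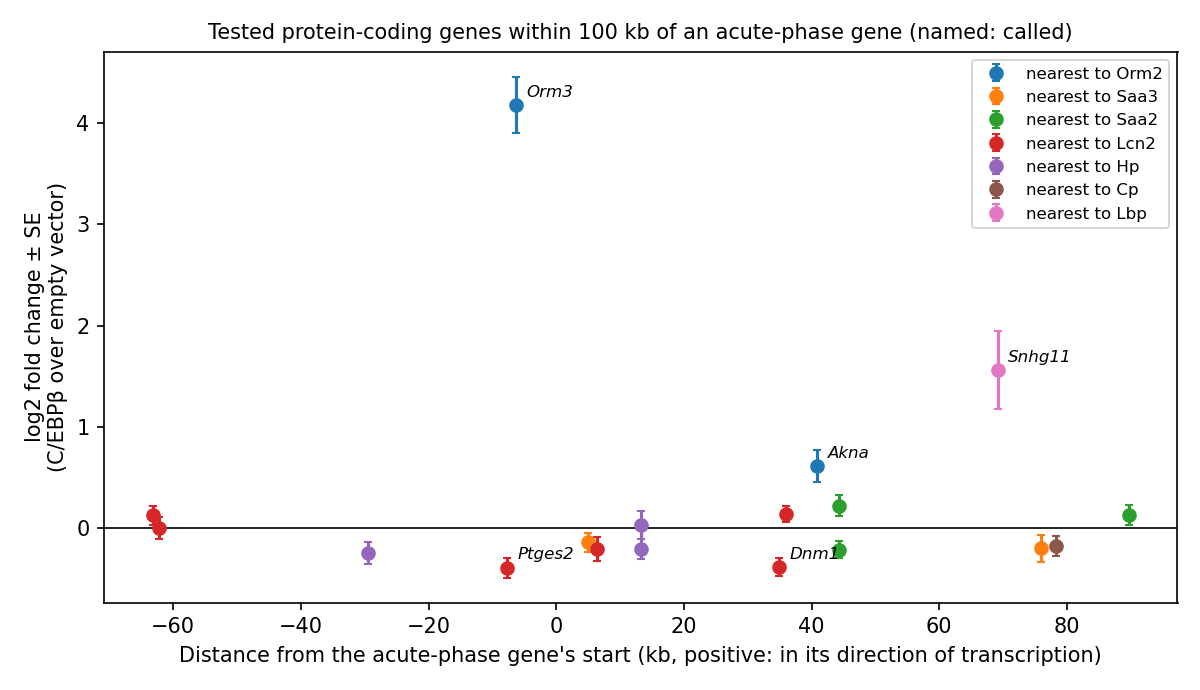
Log2 fold change with its SE for the 18 tested protein-coding genes other than the 10 within 100 kb of an acute-phase gene, against distance from the nearest such gene's start in kb, positive in its direction of transcription, with names on the 5 that passed. Orm3 stands at 4.18, at -6.29 kb from Orm2, Snhg11 at 1.56 and Akna at 0.61, and the other points lie near 0.

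Orm1, Orm2, Hp and Cp had means over the 4 libraries above 1 CPM. For these, the genes with the most similar patterns were found by the distance between log2 CPM profiles over the 4 libraries. Each profile was centred on its own mean, so levels could differ. A prior count of 2 was used in the log2 CPM, which bears on the distances of genes near 0 with empty vector. Profiles over 4 libraries in 2 groups are few points, and the distance is a description. Nearest to Orm2 were Aoc3 (distance 0.165), Camp (0.255) and Lyz2 (0.270). Nearest to Orm1 were Psmb8, Prg4 and Sfrp1, at 0.815 to 0.907, and nearest to Hp were Col27a1, Adam23 and Rnase2a, at 0.579 to 0.764. Nearest to Cp were Kcnj2 (0.130), Spp1 (0.131) and Cd55 (0.145). Aoc3 had 55.0 and 30.9 CPM with C/EBPβ and 1.24 and 0.608 CPM with empty vector, so replicate 1 was the higher C/EBPβ library there as in Orm2. Kcnj2 had 67.1 and 83.5 CPM with C/EBPβ and 48.2 and 46.7 CPM with empty vector, with replicate 2 higher as in Cp.

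The authors' deposited table of the same comparison gives log2 fold changes of 7.51 for Orm1, 4.80 for Orm2, 3.98 for Hp, 2.25 for Saa3 and 0.62 for Cp, with adjusted p of 1.07e-64, 4.85e-18, 4.20e-08, 7.47e-05 and 2.47e-04. In the authors' deposited table, 26.0% of 16594 genes with an adjusted p are under 0.05. Lbp has -0.78 and an adjusted p of 0.137 in the authors' deposited table, and Serpina3n has 0.90 and 0.315. The authors' deposited table lists Lcn2 at 1.99 and Saa2 at -1.06, each with no adjusted p. The directions are the same as in the counts for these 9 genes. Sizes are not compared, since the mean signal given there for Lbp, 140, exceeds every count of Lbp here.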

How the data were processed

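Counts of 49585 genes were read as deposited. Per the file headers, the authors' counts are whole-number fragment counts from featureCounts 1.5.1, reverse-stranded, on GENCODE M12, with reads that were ambiguous or mapped to several places left out. The submitters' processing notes name HISAT2 2.0.4 and GRCm38, and they give featureCounts as 1.4.6, a difference that was not settled. That omission lowers genes with close copies (Saa1, Saa2, Orm1, Orm2). No source used here gives the read length. The authors' deposited table of the comparison holds a base mean signal, log2 fold changes with SE, a test statistic (score) and p-values with adjusted p-values. No source used here says which libraries lie behind its base mean. For Lbp it is 140, above every count of that gene in these 4 libraries, so it is not the mean of these 4 alone. That table was not retested.

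Groups and replicate numbers came from the sample titles. Genes were filtered with filterByExpr of edgeR 4.0.16 (minimum count 10, minimum total 15) in R 4.3.3, leaving 15078. The groups were compared with its quasi-likelihood test, TMM scaling, no covariate and Benjamini-Hochberg adjustment at 0.05. CPM and FPKM computed here use TMM-scaled library sizes. Ratios and bounds use library totals. Where the empty vector group had 0 counts, a lower bound was taken against 3 counts for the whole group. Where it had 1 to 3, the fitted fold was replaced by the ratio and its exact 95% counting interval. The fit was tested on simulated data. Alternatives were DESeq2 1.42.0, voom of limma 3.58.1, other scalings and filters, a replicate block and each library left out. Promoters came from RefSeq (GRCm38.p6), and shared 50- and 100-base words from reference transcripts of GRCm38.

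The 10 genes and all lists were chosen with earlier results of these data known. The names in the text follow 1 rule: the 10 genes and Cebpb, up to 3 called genes of each list in each direction by adjusted p, or the 2 most abundant where none was called, all called neighbours, and the 3 nearest profiles. Genes named outside it (Il6, Stat3, Mt1, Mt2, C3, Saa4, Cd163, Serpina1b, Serpina1d, Dcn, Fn1, Pparg and those listed at 0) were chosen after their values were seen. No protein sequence was used.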

Additional observations from a re-analysis of the deposited data

How the results depend on the processing

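The 10 genes kept their direction under every alternative that gave them a fitted value. Orm1, Orm2, Hp, Saa3 and Cp passed under DESeq2, limma-voom, RLE size factors, library totals, no filter and the replicate block, and Lcn2 passed as well with no filter, which makes 6. With at least 5 CPM in 2 libraries, 2 of the 10 passed, because Orm2, Hp and Saa3 were not tested there. With single libraries left out, 3 to 5 of the 10 passed, and all of these were higher. Without empty vector replicate 1, Saa3 had a log2 fold change of 2.20 and Cp 0.64, and neither passed. Of all genes, 2493 to 3462 passed with 1 library left out, 1527 to 2076 as higher and 966 to 1386 as lower, against 3759, 2129 and 1630 with all 4. The replicate numbers are shared by the groups but no label ties same-numbered libraries to a common batch, and deviations of same-numbered libraries correlated at 0.147 over 15078 genes. With a replicate block, 4536 genes passed, 2573 as higher and 1963 as lower, and 5 of the 10 genes. The counts of called genes per list moved by more than 1.5 times in a few settings, and the cause was not tested. The negative acute-phase list had 1 called gene under DESeq2, 2 with no filter and 1 with the replicate block, and 0 to 1 with a library left out. The Serpina3 cluster had 1 with no filter, the ligands 1 with the stricter filter and 2 to 3 with a library left out, and the C/EBP family 1 to 3 with a library left out. Macrophage markers had 0 with the stricter filter and 1 to 2 with a library left out, neutrophil markers 1 with the stricter filter, and adipocyte markers 5 with no filter. For Orm1, Orm2 and Hp the size rests on 1 to 3 empty vector counts. The lowest values without a library were a ratio of 403 for Orm1, at least 28.5 for Orm2 and at least 31.0 for Hp, and the bound of Lcn2 was 2.01 to 6.09. Saa1, Saa2 and Serpina3n lay below the limit of about 0.25 CPM for testing and were tested only with no filter.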

Other observations

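Markers of other mesenchymal cells and of muscle differed between the same libraries. The counts below are read against all tested genes, of which 14.1% were higher and 10.8% lower with C/EBPβ. Of 12 fibroblast markers, 10 were tested, 6 were higher and 1 was lower with C/EBPβ, with a median log2 fold change of 1.30 against 0.00 over all tested genes. Pdgfra, a receptor of fibroblasts and fibro-adipogenic cells, had a mean of 59.1 ± 15.2 CPM with C/EBPβ and 9.94 ± 0.720 CPM with empty vector (SD, n = 2 each). Col1a1, a chain of type I collagen, had 679 ± 262 CPM with C/EBPβ and 100.5 ± 13.9 CPM with empty vector. Vim, vimentin, was the 1 called lower, with a log2 fold change of -0.55 and an adjusted p of 0.0146 in edgeR. Without empty vector replicate 1 it was -0.53 and the call was lost. Dcn and Fn1 had 0.15 and -0.07, did not pass, and their sign turned in some of the alternative fits. Of 12 adipocyte markers, 5 were tested and 2 were higher, Lpl at a log2 fold change of 4.62 and Fabp4 at 5.34, which was 6.06 without empty vector replicate 1. The median of the 5 was -0.05, and Pparg, named after its value was seen, had -0.05 with an adjusted p of 0.800. Of 12 myogenic markers, 9 were lower, 2 were higher and the median was -0.99. Myog, the factor that starts myotube differentiation, had -2.75 and was -3.40 without C/EBPβ replicate 2, while Pax7 and Myf5, factors of muscle precursors, had 0.94 and 0.60. Whether these differences and those of the acute-phase genes arise in the same cells was not tested.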
